A study of Mus musculus with 6 samples.

Results

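The genes described here are the WNT ligands, their Frizzled and LRP receptors, the secreted WNT antagonists and the intracellular genes that carry or restrain the WNT signal, 56 protein-coding genes of the 54838 genes in the deposited table. They are set by a rule on symbols, with no measured value in it: all genes named Wnt, Fzd, Sfrp, Dkk, Dvl or Axin with a number, together with Tcf7, Tcf7l1, Tcf7l2, Lef1, Ctnnb1, Apc, Gsk3a, Gsk3b, Lrp5, Lrp6, Rnf43, Znrf3, Nkd1 and Nkd2. RNA came from mouse B16F10 melanoma cells, a transplantable pigment cell tumour line: 3 libraries from control cells and 3 from cells given 50 µM fenofibrate, called biological triplicates by the submitters. Fenofibrate is a drug against high blood lipids, and its active form activates PPARα, a nuclear receptor. The labels used here give neither the vehicle nor the length of treatment, and their cell line field starts at B16F10 and names a different line for each of the 6 libraries. Libraries were grouped by title, and if that field is meant as written, line and treatment cannot be told apart.

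WNT proteins are secreted lipid-modified ligands that bind a Frizzled receptor together with LRP5 or LRP6. In the absence of ligand a complex of AXIN, APC and the GSK3 kinases marks β-catenin, encoded by Ctnnb1, for degradation. When receptors are engaged, Dishevelled proteins disable that complex, and β-catenin enters the nucleus and works with TCF and LEF factors on target genes. In the melanocyte lineage the pathway is known for its part in specifying pigment cells from neural crest and for acting on the gene of the pigment cell factor MITF. Some WNTs, WNT5 proteins among them, also signal without β-catenin.

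Libraries held 13540038 to 14710856 counts, so that a count of 0 (limit 3 counts) allows up to 0.204 to 0.222 CPM in a library, CPM being the count scaled to the library total; this limit covers counting error only. All 8 melanocyte lineage markers were detected, and 6 of them were called higher with fenofibrate by the test described below. Of all tested genes 19.5% were called higher. Summed levels of the 8 markers were 22221 to 23649 CPM in control and 27196 to 28792 CPM in treated libraries. Markers of other cell types were scarce. Summed levels of 6 fibroblast markers were 14.9 to 17.8 CPM in control and 7.73 to 9.38 CPM with fenofibrate, none of the 6 being at 0 in all libraries. Those of 8 blood cell markers were 0 to 0.662 and 1.29 to 1.67 CPM, with Cd3e, Adgre1 and Itgam at 0 in all 6 libraries. Endothelial markers summed to at most 0.662 CPM, with Cdh5, Kdr, Tek and Emcn at 0 throughout, and keratinocyte markers to at most 0.142 CPM, with Krt5, Krt1, Krt10 and Trp63 at 0. The part of these markers in the results below was not tested. In bulk RNA, fewer cells of a type and less RNA per cell cannot be told apart.

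Of the 56 genes, 30 had enough counts to be tested, 11 had a few counts and 15 had 0 counts in all 6 libraries. A gene was called when edgeR's quasi-likelihood test gave a Benjamini-Hochberg adjusted p under 0.05 over all 13629 genes tested. In all, 17 of the 30 were called, 9 higher (Wnt9a, Fzd1, Fzd5, Fzd6, Fzd7, Fzd9, Lrp6, Dkk3 and Lef1) and 8 lower (Wnt10a, Wnt5b, Wnt6, Fzd2, Sfrp4, Dvl2, Tcf7 and Tcf7l1) with fenofibrate. Over all tested genes 39.1% were called, 19.5% higher and 19.5% lower. Called changes of at least 2-fold were made by 9 of the 30, against 5.56% of all tested genes. The median size of the log2 fold change, regardless of sign, was 0.53 for the 30 genes and 0.25 for all tested genes, while the signed medians were 0.02 and 0.00. Wnt10a and Sfrp4 passed the count filter only through the control libraries, and Lef1 and Fzd9 only through the treated ones. A difference in those 4 genes was thus a condition of their being tested. All 4 are among the 9 genes with called changes of at least 2-fold, and they also enter the median of 0.53. The plot of all 30 changes shows calls among the ligands, receptors, antagonists, Dishevelled genes and TCF/LEF factors.

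**Figure D1:**
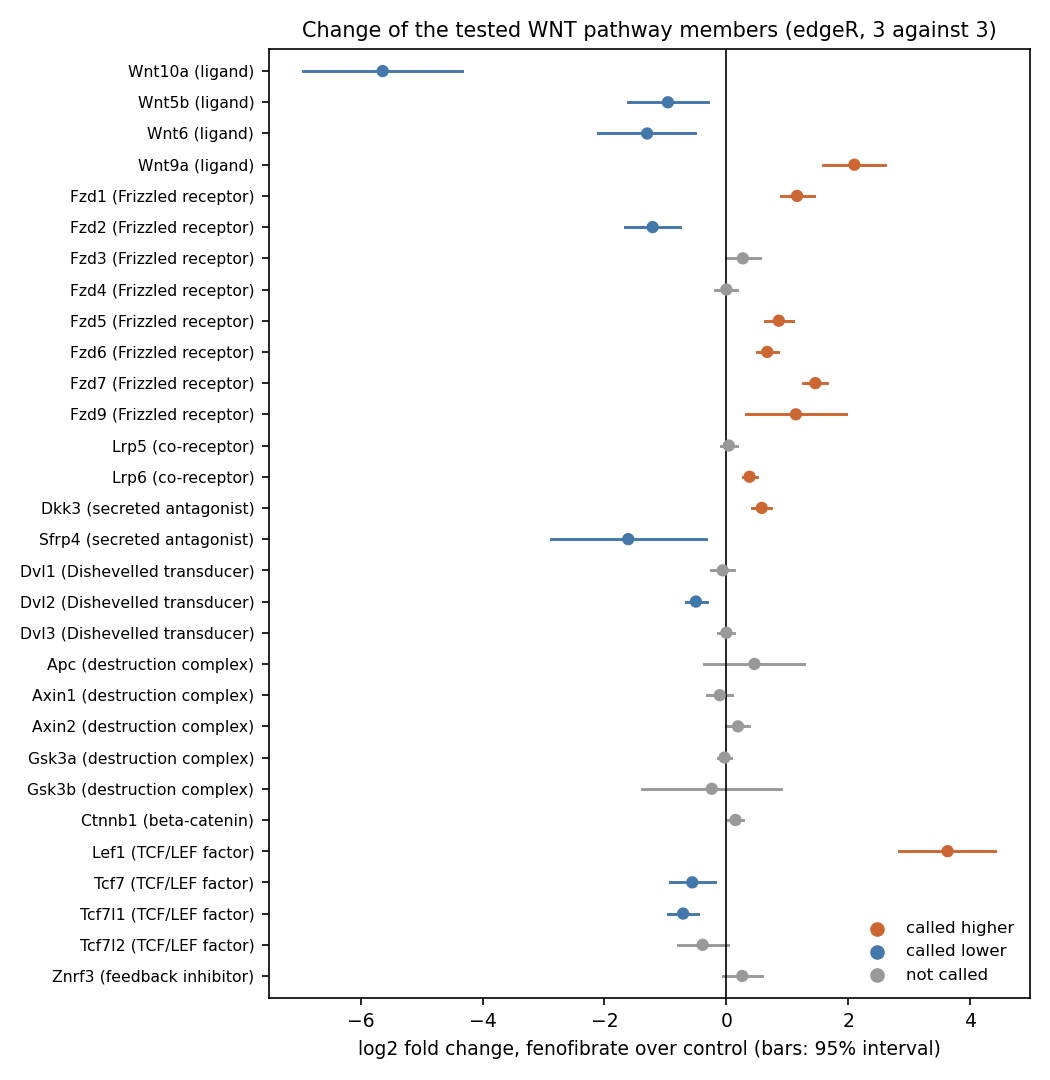
Log2 fold change of fenofibrate over control (x axis) for the 30 tested WNT pathway genes (y axis, with their role), each with its 95% interval from the edgeR test of 3 against 3 libraries. Orange marks the 9 genes called higher, blue the 8 called lower and grey the 13 not called; Wnt10a (-5.64) and Lef1 (3.63) lie farthest from 0.

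Ligand genes were expressed at low levels. Of 19 Wnt genes, 4 were tested and all 4 were called: Wnt10a, Wnt6 and Wnt5b fell and Wnt9a rose. Among all tested genes 39.1% were called, 19.5% lower and 19.5% higher. Wnt10a passed the count filter only through its control libraries, as stated above. Wnt1, Wnt3, Wnt3a, Wnt5a, Wnt7a, Wnt8a, Wnt8b, Wnt9b and Wnt16 had 0 counts in all 6 libraries. The others with few counts were Wnt2, Wnt2b, Wnt4, Wnt7b, Wnt10b and Wnt11, none with more than 6 counts in a library. The most abundant ligand RNA by count, Wnt9a with fenofibrate, reached 8.69 ± 1.16 normalised CPM (TMM-scaled totals; mean ± SD, n = 3), so that the ligands stood on the scale of the fibroblast marker sum given above, which was also lower with fenofibrate. Pdgfrb carried most of that sum (198, 186 and 194 counts against 102, 96 and 122) and was called lower, while Col1a1, the other tested fibroblast marker, was not (14, 6 and 13 against 10, 10 and 10; edgeR, adjusted p = 0.812). Their part in the falls was not tested.

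Wnt10a, a ligand of the β-catenin branch known from tooth and hair development, had 41, 42 and 36 counts in control and 2, 0 and 0 with fenofibrate. The groups did not overlap, and 2 of the 3 treated libraries held no read of the gene; groups did not overlap for 53.3% of all tested genes. With 119 counts against 2, the level was 61.5-fold lower (exact 95% interval 16.6 to 513, counting error only), and the fitted log2 fold change was -5.64 ± 0.56 SE (edgeR, adjusted p = 0.000276). The fitted value rests on the prior count the test adds, as the treated group was nearly empty: without fenofibrate replicate 1, which held both treated reads, it was -8.32 (edgeR, adjusted p = 0.000922), and neither value is a bound. Wnt10a (ENSMUSG00000026167) lies on chromosome 1 from 74791516 to 74804179 (GRCm38).

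Wnt6, a ligand known from epithelia and kidney development, is the neighbour of Wnt10a, on the same strand of chromosome 1 from 74771892 to 74785322, with 6193 bases between them. It was counted 32, 44 and 49 times in control and 18, 23 and 9 times with fenofibrate. Every treated library was below every control, at a 2.47-fold lower level (log2 fold change -1.30 ± 0.34 SE, edgeR, adjusted p = 0.0193). The call was lost without control replicate 2 (adjusted p = 0.0518) or control replicate 3 (0.0622). Within 100 kb of the pair, a distance chosen after the values were seen, 2 other genes were tested and both fell: Cdk5r2 was 2.01-fold lower (edgeR, adjusted p = 0.00344) and Ttll4 1.48-fold lower (adjusted p = 0.00144). Within 500 kb 25 other genes were tested, of which 4 fell (Cdk5r2 and Ttll4 among them), 3 rose and 18 were not called. Over all tested genes 19.5% were called lower and 19.5% higher. Calls over the wider region went both ways.

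Wnt5b, best known for signalling without β-catenin, was counted 39, 33 and 55 times in control and 16, 27 and 22 times with fenofibrate. It was 1.94-fold lower (log2 fold change -0.96 ± 0.28 SE, edgeR, adjusted p = 0.0302), without overlap between the groups. This call was lost in 7 of 10 other settings. It was lost without control replicate 1 (adjusted p = 0.0588), control replicate 3 (0.0907), fenofibrate replicate 1 (0.0929) or fenofibrate replicate 3 (0.076). It was also lost with DESeq2 (0.0632), without a filter on low counts (0.054) and with the replicate number as a block (0.0573).

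Wnt9a, known from joint and skeletal development, moved the other way. It was counted 22, 26 and 37 times in control and 125, 131 and 106 times with fenofibrate, so that the lowest treated library held more reads than any control. The rise was 4.27-fold (log2 fold change 2.10 ± 0.22 SE, edgeR, adjusted p = 0.000334). Wnt9a (ENSMUSG00000000126) lies on chromosome 11 from 59306928 to 59333552, and its neighbour Wnt3a, 16175 bases away on the other strand, had 0 counts in all 6 libraries.

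Among ligands too scarce to be tested, Wnt4 had 0 counts in all 3 control libraries and 6, 3 and 2 with fenofibrate. Against a limit of 3 counts over the control group the ratio was 3.55. That ratio takes the treated counts as exact, so it is no lower bound. The edgeR fit without a filter on low counts put the adjusted p of Wnt4 at 0.0549. Porcn, the acyltransferase that attaches the lipid to WNT proteins, and Notum, the enzyme that removes it, were singled out after their values were seen. Porcn had 1, 3 and 0 counts in control and 6, 14 and 9 with fenofibrate, a ratio of 7.02 (exact 95% interval 2.47 to 27.5, counting error only; adjusted p = 0.0416 in the edgeR fit without a filter). Notum had 0 counts in each control and 10, 2 and 2 with fenofibrate (adjusted p = 0.101 in that edgeR fit). Its ratio against 3 counts over the control group was 4.52, again with the treated counts taken as exact. Exons of Notum overlap genes on the opposite strand. The blood cell marker sum (0 to 0.662 against 1.29 to 1.67 CPM) was also higher with fenofibrate, and its part in these 3 values was not tested.

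**Figure D2:**
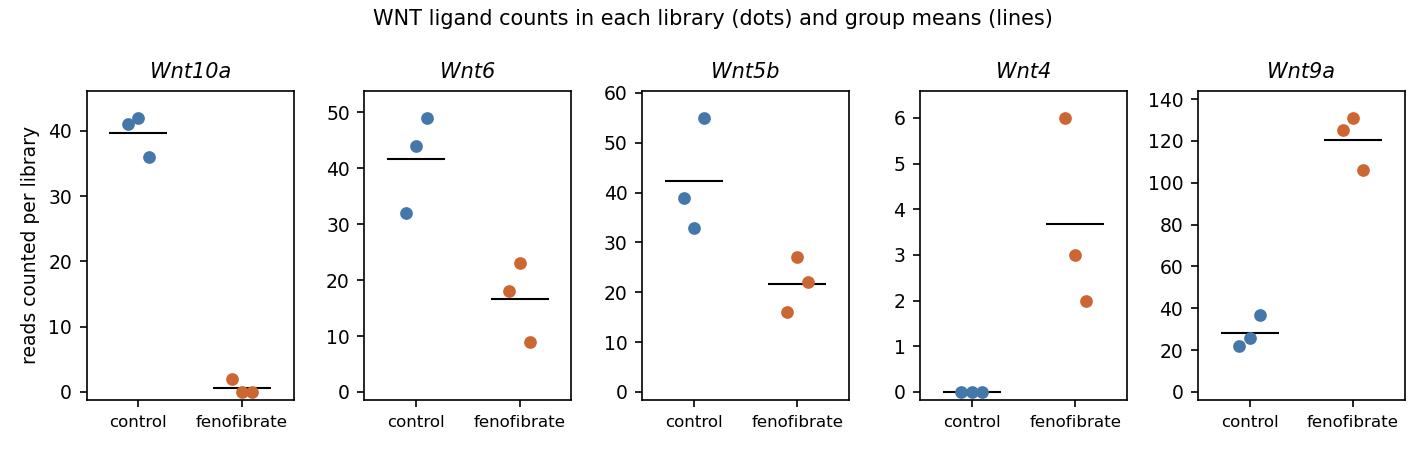
Reads counted per library (y axis, starting near 0 and scaled separately in each panel) for 5 WNT ligand genes in control (blue) and fenofibrate (orange) libraries; dots are libraries and lines are group means. Wnt10a goes from 36 to 42 counts to at most 2, while Wnt9a goes from 22 to 37 counts to 106 to 131.

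Per gene length the ligand genes as a whole summed to 2.92 ± 0.339 FPKM in control and 2.12 ± 0.404 FPKM with fenofibrate (mean ± SD, n = 3 each), FPKM being counts scaled to gene length and library total. Wnt10a made up 35.2% ± 6.19 of that sum in control and 0.757% ± 1.31 with fenofibrate, and Wnt6 34.4% ± 4.2 and 18% ± 5.08. Wnt9a made up 10.9% ± 1.76 in control and 63.5% ± 4.42 with fenofibrate. Its share was 9.54%, 10.3% and 12.9% in the control libraries and 63.2%, 59.2% and 68.0% in the treated ones, making it the most abundant ligand in each treated library and in no control. When each gene's merged exon length replaced the length behind the deposited values, the Wnt9a share was 14.0% ± 1.83 and 67.5% ± 3.50. On that scale the ligand sums of the groups overlapped, at 3.92, 4.09 and 5.11 in control and 4.05, 4.3 and 3.07 with fenofibrate. Their mean was still lower with fenofibrate (3.81 ± 0.65 against 4.37 ± 0.645 in control). In FPKM the sums of the groups did not overlap, so their separation depended on the lengths used.

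The start sites of Wnt6 and Wnt9a are shown because they were the called ligands with a window that changed by more than 2-fold, Wnt6 downward and Wnt9a upward. Each window runs from 250 bases before to 50 bases after a RefSeq start site in GRCm38.p6, and capitals mark matches to the motifs searched.
Wnt6 (chr1:74771642-74771941, plus strand): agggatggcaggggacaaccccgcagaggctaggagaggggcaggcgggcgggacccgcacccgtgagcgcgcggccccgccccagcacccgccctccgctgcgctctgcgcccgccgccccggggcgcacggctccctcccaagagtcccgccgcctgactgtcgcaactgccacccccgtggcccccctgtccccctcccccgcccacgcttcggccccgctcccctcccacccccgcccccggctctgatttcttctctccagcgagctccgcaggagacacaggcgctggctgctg
Wnt9a (chr11:59306680-59306979, plus strand): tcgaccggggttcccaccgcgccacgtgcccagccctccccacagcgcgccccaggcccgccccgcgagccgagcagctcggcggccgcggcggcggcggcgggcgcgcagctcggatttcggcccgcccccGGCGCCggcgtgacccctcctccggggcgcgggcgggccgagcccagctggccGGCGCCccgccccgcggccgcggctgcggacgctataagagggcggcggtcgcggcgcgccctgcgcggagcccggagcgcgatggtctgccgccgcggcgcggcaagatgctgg
Motifs were searched on both strands as follows: for TCF/LEF the letters CTTTGAA or else CTTTGAT or else CTTTGTA or else CTTTGTT, for TEAD the letters GGAATG, for AP-1 the letters TGANTCA, and as a GC-rich SMAD motif the letters GGCGCC, which read the same on both strands. No match shown overlaps another. The Wnt6 window held none of these letters, and the Wnt9a window held GGCGCC at 118 and 65 bases before the start site. Of the 56 genes, 39 had a window, 19 of them among the tested genes. GGCGCC was in 8 of these 19 windows (42.1%) and in 11.9% of all 32851 windows. The 19 windows were rich in G and C, with a median of 72.7% against 52.7% of all windows. Of all windows with at least 72.7% GC, 49.6% held GGCGCC. Some of the 19 windows held less GC (Fzd1 54%, Gsk3a 54.3%), so the sets compared are not matched in GC.

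The Frizzled receptors were the group with most rises, and also the group with most tested genes. Of 10 Fzd genes 8 were tested, and 5 rose (Fzd7, Fzd1, Fzd5, Fzd6 and Fzd9), 1 fell (Fzd2) and 2 were not called (Fzd3 and Fzd4). Over all tested genes 19.5% were called higher and 19.5% lower. Fzd9 was tested only through its treated libraries, as stated above. Fzd10 had 0 counts in all libraries and Fzd8 had 1 count in 1 control library.

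Fzd7, whose product is the receptor most often tied to β-catenin signalling in tumour and stem cells, was counted 1537, 1767 and 1657 times in control and 4457, 4938 and 4105 times with fenofibrate. Every treated library lay far above every control. Mean normalised CPM were 118 ± 6.51 in control and 324 ± 34.2 with fenofibrate (SD, n = 3 each), a 2.74-fold rise (log2 fold change 1.46 ± 0.08 SE, edgeR, adjusted p = 2.53e-05). Fzd7 (ENSMUSG00000041075) lies on chromosome 1 from 59482424 to 59486955.

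Fzd1, a relative of Fzd7 in sequence, was counted 144, 185 and 196 times in control and 364, 411 and 396 times with fenofibrate. It rose 2.24-fold (log2 fold change 1.16 ± 0.12 SE, edgeR, adjusted p = 0.000299). Fzd2, the third gene of that subfamily, went down, from 119, 134 and 178 counts to 51, 70 and 64. It was 2.32-fold lower (log2 fold change -1.21 ± 0.19 SE, edgeR, adjusted p = 0.0023). In neither gene did the groups overlap. How reads matching more than 1 of these similar genes were counted is not given in the sources used here.

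Fzd5 was counted 128, 129 and 112 times in control and 220, 225 and 222 times with fenofibrate, a 1.82-fold rise (log2 fold change 0.86 ± 0.10 SE, edgeR, adjusted p = 0.000436). Fzd6, known for its part in planar polarity and hair patterning, was counted 404, 481 and 422 times and 632, 738 and 702 times, a 1.59-fold rise (0.67 ± 0.08 SE, edgeR, adjusted p = 0.00045). Treated and control libraries were separate for both. Exons of Fzd5 and Fzd6 each overlap a scarcer gene, with 0 and 2 to 12 counts per library.

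Fzd9 was counted 9, 9 and 9 times in control and 11, 24 and 25 times with fenofibrate, so that the first treated library lay close to the controls. The rise was 2.21-fold (log2 fold change 1.14 ± 0.35 SE, edgeR, adjusted p = 0.036). It was lost on leaving out control replicate 1, 2 or 3 (adjusted p = 0.091, 0.0927 and 0.0877) or fenofibrate replicate 2 or 3 (0.109 and 0.105). DESeq2 (0.135), the fit without a filter (0.0631) and the replicate block (0.0599) also gave no call. Fzd4, the receptor for Norrin, was counted 235, 244 and 231 times and 217, 252 and 238 times, with a fold of 1 and a 95% interval from 0.882 to 1.14. Fzd3 had a fold of 1.21 (interval 1 to 1.46, edgeR, adjusted p = 0.101), with the treated libraries (184, 188 and 179 counts) above the controls (161, 135 and 162).

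**Figure D3:**
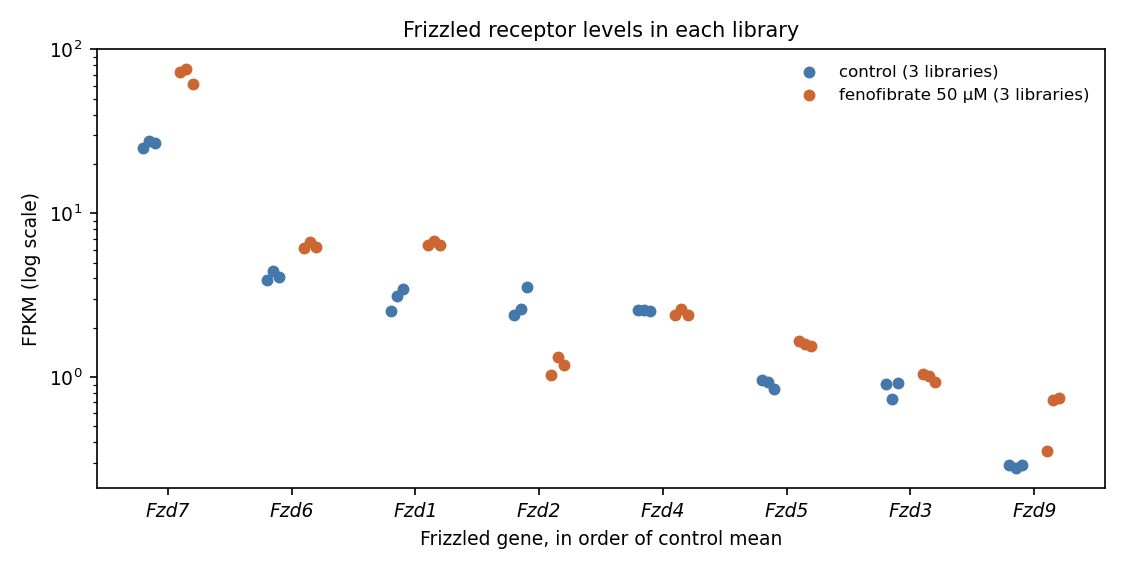
FPKM (y axis, log scale) of the 8 tested Frizzled genes (x axis, ordered by control mean) in 3 control (blue) and 3 fenofibrate (orange) libraries, 1 dot per library. Fzd7 stands above the others in both groups (means 26.5 and 70.0 FPKM), and Fzd2 is the one gene called lower, its treated dots below all its control dots.

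On the FPKM scale Fzd7 was the most abundant Frizzled in every library, at 26.5 ± 1.42 FPKM in control and 70.0 ± 7.48 FPKM with fenofibrate (mean ± SD, n = 3 each). In control it was followed by Fzd6 (4.14 FPKM), Fzd1 (3.03), Fzd2 (2.85), Fzd4 (2.56), Fzd5 (0.911), Fzd3 (0.854) and Fzd9 (0.285). The ranges of Fzd1 and Fzd2, of Fzd2 and Fzd4, and of Fzd5 and Fzd3 overlapped. With fenofibrate the order was Fzd7, Fzd1 (6.54), Fzd6 (6.35), Fzd4 (2.47), Fzd5 (1.60), Fzd2 (1.18), Fzd3 (0.995) and Fzd9 (0.608), with overlap between Fzd1 and Fzd6 and between Fzd2 and Fzd3. On merged exon lengths Fzd6 (10.1) stood above Fzd1 (6.54) in the treated group. Frizzled RNA summed to 41.2 ± 2.32 FPKM in control and 89.8 ± 7.96 FPKM with fenofibrate, of which Fzd7 made up 64.4% ± 1.09 and 77.9% ± 1.72, and Fzd2 6.91% ± 1.29 and 1.32% ± 0.178.

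The Fzd7 start site is shown because it carried the one TCF/LEF match among the called genes with a window.
Fzd7 (chr1:59481897-59482196, plus strand): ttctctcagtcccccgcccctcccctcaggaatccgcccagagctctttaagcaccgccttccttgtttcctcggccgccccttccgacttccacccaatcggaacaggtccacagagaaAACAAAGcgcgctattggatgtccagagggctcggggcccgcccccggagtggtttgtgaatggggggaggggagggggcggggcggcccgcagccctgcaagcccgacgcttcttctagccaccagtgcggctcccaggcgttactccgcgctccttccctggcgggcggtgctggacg
The match, AACAAAG, begins 130 bases before the RefSeq start site, which itself lies 277 bases upstream of the start of the gene in the deposited table. One of the TCF/LEF sequences was found in 2 of the 19 windows of tested genes (10.5%; Fzd7 and Gsk3a) and in 16.9% of all windows.

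Of the 2 LRP co-receptors 1 rose, and of 8 secreted antagonists 2 were tested, of which Dkk3 rose and Sfrp4 fell. Lrp6 was counted 3038, 3288 and 2856 times in control and 3903, 3898 and 4074 times with fenofibrate, each treated library lying above each control. The rise was 1.3-fold (log2 fold change 0.38 ± 0.05 SE, edgeR, adjusted p = 0.000853). Lrp5 was not called, at a fold of 1.03 (95% interval 0.942 to 1.12). Dkk3, the divergent member of the Dickkopf family of secreted proteins, was counted 988, 1066 and 1138 times in control and 1520, 1679 and 1559 times with fenofibrate. It rose 1.5-fold (log2 fold change 0.58 ± 0.07 SE, edgeR, adjusted p = 0.000573), with no overlap between groups.

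Dkk1, which binds LRP5 and LRP6, was counted 1, 2 and 0 times in control and 1, 3 and 3 times with fenofibrate, and no difference was detectable at this depth. Dkk2, Dkk4, Sfrp2 and Sfrp5 had 0 counts throughout, and Sfrp1 had 2 counts in 1 control library. Sfrp4, a secreted Frizzled-related protein gene, had 13, 16 and 12 counts in control and 9, 2 and 2 with fenofibrate. Its fall of 3.06-fold (log2 fold change -1.61 ± 0.55 SE) was at the threshold (edgeR, adjusted p = 0.0495) and rested on few reads. Without fenofibrate replicate 1, the treated library with most reads, the log2 fold change was -2.72 (adjusted p = 0.0065). It was lost without control replicate 1, 2 or 3 (adjusted p = 0.101, 0.125 and 0.0883) or fenofibrate replicate 2 or 3 (0.137 and 0.132). DESeq2 (0.125), the fit without a filter (0.102) and the replicate block (0.0796) did not call it.

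Of the genes for the cytoplasmic steps Dvl2 alone was called by the main test. Dvl2, one of 3 Dishevelled genes, was counted 462, 445 and 474 times in control and 323, 311 and 340 times with fenofibrate. It was 1.41-fold lower (log2 fold change -0.50 ± 0.08 SE, edgeR, adjusted p = 0.00201), without overlap. Its exons overlap Acadvl on the opposite strand, which moved the other way (618, 596 and 639 counts in control, 830, 907 and 915 with fenofibrate), and the strand setting of the counting is not given. Dvl1 (fold 0.956, interval 0.843 to 1.08) and Dvl3 (fold 1, interval 0.914 to 1.1) were not called.

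Of the 5 destruction complex genes edgeR called 0, with 1 at an unadjusted p under 0.05, and DESeq2 and limma on FPKM each called 0. Gsk3a was counted 1660, 1711 and 1739 times in control and 1535, 1713 and 1738 times with fenofibrate (fold 0.980, 95% interval 0.911 to 1.05). Axin1 had a fold of 0.927 (interval 0.809 to 1.06). Neither group stood apart from the other in these 2 genes.

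Axin2, the scaffold gene that β-catenin itself induces and that is widely read as a gauge of pathway output, was counted 284, 279 and 294 times in control and 324, 310 and 336 times with fenofibrate. The treated libraries all lay above the controls, but the difference of 1.14-fold (95% interval 1 to 1.3) did not pass (edgeR, adjusted p = 0.101). It did not pass in any of the 12 other settings.

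Gsk3b and Apc were counted unevenly within a group, so that their comparisons say little. Gsk3b had 1782, 1066 and 2629 counts in control and 732, 2769 and 1171 with fenofibrate, with a highest-to-lowest ratio of 2.57 and 3.55 within the groups in normalised CPM. Apc had 1017, 1218 and 1050 counts in control and 2419, 1003 and 1007 with fenofibrate, where only the first treated library was high. Without that library the log2 fold change of Apc went from 0.46 to -0.15 (edgeR, adjusted p = 0.193). Of the 8 WNT genes with a mean of 1000 counts or more, these were the 2 with a ratio of at least 2 within a group, which 2.24% of the 3478 tested genes of that abundance showed.

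Ctnnb1, the β-catenin gene, was among the most abundant of these transcripts, with 10837, 10129 and 9601 counts in control and 11151, 11079 and 11518 with fenofibrate. The treated libraries lay above the controls, by 1.11-fold (log2 fold change 0.15 ± 0.05 SE, 95% interval 0.03 to 0.27), which missed the threshold (edgeR, adjusted p = 0.051). It passed with DESeq2 (0.0376), with RLE scaling (0.0477), with the replicate block (0.0334) and without control replicate 1 (0.0153), and over the 12 other settings the adjusted p reached from 0.0153 to 0.305. Ctnnb1 encodes a protein regulated mainly through its stability, which RNA counts do not measure.

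Among the TCF/LEF factors, Lef1 rose while Tcf7 and Tcf7l1 fell. Lef1, which encodes a factor known as an activator with β-catenin and as a melanocyte lineage regulator, was counted 9, 2 and 6 times in control and 68, 73 and 72 times with fenofibrate. The treated libraries were alike and all far above the controls. The rise was 12.3-fold (95% interval 7.15 to 21.3; log2 fold change 3.63 ± 0.34 SE, edgeR, adjusted p = 0.000214). Lef1 (ENSMUSG00000027985) lies on chromosome 3 from 131110471 to 131224356, and a gene on the opposite strand that overlaps its exons had 0 counts in 5 libraries and 5 in the other.

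Tcf7l1, the TCF known mostly as a repressor, was counted 225, 224 and 244 times in control and 131, 132 and 158 times with fenofibrate. It was 1.64-fold lower (log2 fold change -0.71 ± 0.10 SE, edgeR, adjusted p = 0.00146), without overlap. Tcf7 was counted 114, 160 and 140 times and 90, 81 and 108 times, and was 1.47-fold lower (-0.56 ± 0.16 SE, edgeR, adjusted p = 0.0277). That call was lost without control replicate 2 (0.0888), control replicate 3 (0.0742), fenofibrate replicate 1 (0.0647) or fenofibrate replicate 2 (0.0804), and with the replicate block (0.0556). Tcf7l2 had 158, 152 and 168 counts and 126, 143 and 92, with a fold of 0.761 (95% interval 0.573 to 1.01, edgeR, adjusted p = 0.115).

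Together the TCF/LEF genes summed to 6.85 ± 0.449 FPKM in control and 4.81 ± 0.313 FPKM with fenofibrate (mean ± SD, n = 3 each). Lef1 supplied 0.671% ± 0.455 of that sum in control and 11.3% ± 0.948 with fenofibrate, so that Tcf7l1 (48.1% ± 3.39 and 40.1% ± 1.03) and Tcf7 (43.5% ± 4.51 and 40.5% ± 2.72) stayed the most abundant. On merged exon lengths the Lef1 share was 0.509% ± 0.344 and 8.71% ± 0.574.

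**Figure D4:**
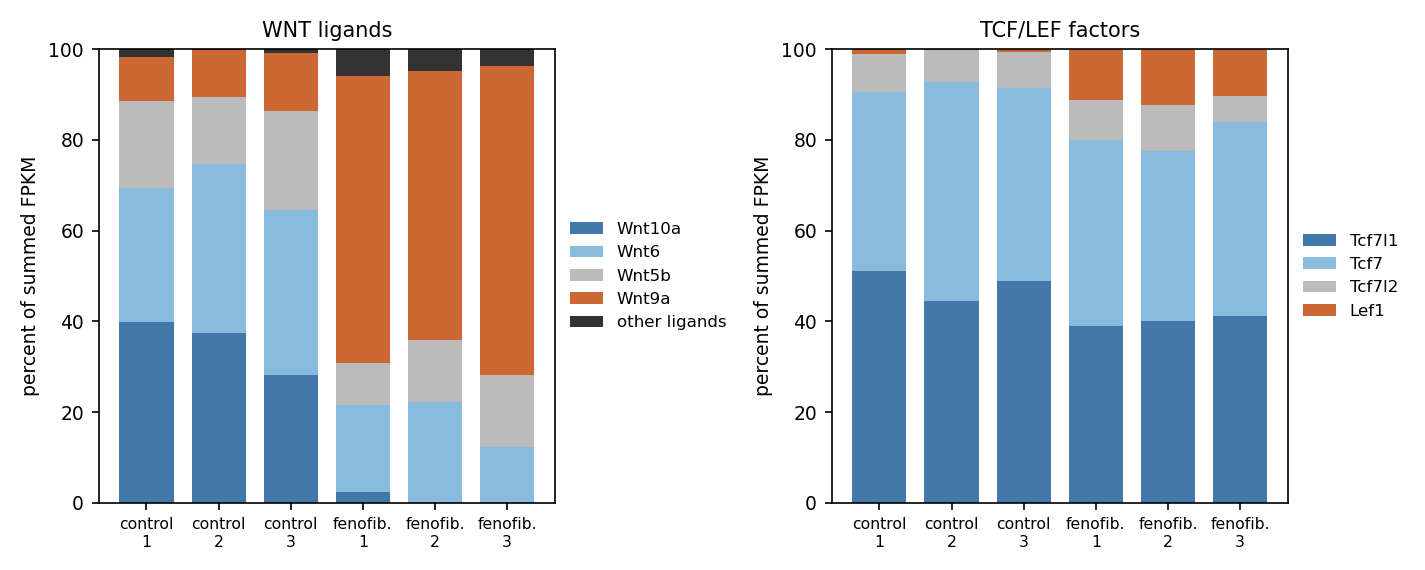
Percent of summed FPKM (y axis) supplied by each WNT ligand gene (left) and each TCF/LEF gene (right) in the 3 control and 3 fenofibrate libraries, 1 bar per library. Wnt10a and Wnt6 fill most of the control bars and Wnt9a most of the treated bars (63.5% on average), while Lef1 goes from 0.671% to 11.3%.

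The Lef1 and Tcf7l1 start sites are shown because these factors changed most among the TCF/LEF genes and in opposite directions.
Lef1 (chr3:131110073-131110372, plus strand): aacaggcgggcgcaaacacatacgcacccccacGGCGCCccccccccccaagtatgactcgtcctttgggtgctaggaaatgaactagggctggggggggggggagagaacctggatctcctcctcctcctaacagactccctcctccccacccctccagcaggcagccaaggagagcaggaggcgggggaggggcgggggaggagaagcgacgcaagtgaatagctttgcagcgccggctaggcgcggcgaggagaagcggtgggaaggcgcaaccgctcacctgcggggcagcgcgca
Tcf7l1 (chr6:72788996-72789295, minus strand): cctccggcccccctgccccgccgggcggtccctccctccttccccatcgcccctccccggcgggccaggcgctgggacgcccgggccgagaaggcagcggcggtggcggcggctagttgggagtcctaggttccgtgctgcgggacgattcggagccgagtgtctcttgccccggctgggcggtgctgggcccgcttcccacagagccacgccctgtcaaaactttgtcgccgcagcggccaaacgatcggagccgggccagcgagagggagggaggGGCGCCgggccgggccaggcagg
Both windows held GGCGCC, at 217 bases before the start site in Lef1 and 27 bases after it in Tcf7l1, and neither held the other motifs. The same letters stood in the windows of a gene that rose and of one that fell. Their part in either change was not tested.

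Of 4 feedback inhibitors Znrf3 alone had enough counts to be tested. Znrf3, a ligase that removes Frizzled receptors from the cell surface, was counted 219, 300 and 307 times in control and 283, 357 and 342 times with fenofibrate (fold 1.19, 95% interval 0.957 to 1.49, edgeR, adjusted p = 0.178). Its partner Rnf43 had 0 counts in all 6 libraries. Nkd2, a Dishevelled-binding inhibitor, had 9, 9 and 7 counts in control and 2, 4 and 0 with fenofibrate, a ratio of 0.232 (exact 95% interval 0.078 to 0.580, counting error only). It was too scarce for the main test and was not called without a filter (edgeR, adjusted p = 0.0981). Nkd1 had 1 count in 1 control library.

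Other genes of the pathway were read from 4 lists, written with earlier results of these data known, so that their counts and medians are descriptions. Of 22 genes of WNT secretion and extracellular control, 5 were tested. Wls, the carrier that brings WNT proteins to the cell surface, rose 1.42-fold (2254, 2490 and 2410 counts against 3159, 3326 and 3597; edgeR, adjusted p = 0.000189). Igfbp4, which encodes an IGF-binding protein that can also block Frizzled and LRP6, was 1.94-fold lower (1850, 1899 and 1902 counts against 877, 1019 and 1004; edgeR, adjusted p = 2.15e-05). Frzb, Draxin and Kremen1 were not called.

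Of 23 other WNT receptors and planar polarity genes 18 were tested. Of these 7 fell, 4 rose and 7 were not called (median log2 fold change -0.27). Over all tested genes 19.5% were called lower and 19.5% higher. Vangl2, a core planar polarity gene, was 2.37-fold lower (326, 364 and 326 counts against 124, 149 and 154; edgeR, adjusted p = 7.06e-05). The R-spondin receptor genes Lgr5 and Lgr6 were 2.09-fold (adjusted p = 0.00179) and 1.62-fold lower (adjusted p = 0.0128; not called by DESeq2, 0.0937). The third receptor of that class, Lgr4, named after its values were seen, was more abundant and went the other way, from 426, 451 and 443 counts to 512, 562 and 487, or 1.19-fold higher (edgeR, adjusted p = 0.0378), a call lost in 10 of 12 other settings. Among these were leaving out control replicate 1, 2 or 3 (0.11, 0.0912 and 0.0698) and fenofibrate replicate 1 or 2 (0.0995 and 0.115). Lrp4, a relative of the LRP co-receptors, was 1.67-fold lower (adjusted p = 0.00158). Celsr3 passed the count filter only with the help of its treated libraries. It rose 2.94-fold from a low level (9, 10 and 10 counts against 37, 30 and 18, edgeR, adjusted p = 0.0108) and Prickle2 rose 1.46-fold (adjusted p = 0.00689). Their more abundant relatives, named after their values were seen, fell: Celsr2 was 1.42-fold lower (869, 860 and 813 counts against 564, 620 and 599; edgeR, adjusted p = 0.000433) and Prickle1 1.36-fold lower (2493, 2686 and 2498 against 1671, 1832 and 2106; adjusted p = 0.00116). Ror1 and Ror2, receptors for WNT5 proteins, had 0 counts in all libraries.

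Of 39 genes of the wider destruction complex and of β-catenin's nuclear partners 37 were tested. Of these 11 rose, 11 fell and 15 were not called (median 0.02). The shares over all tested genes were 19.5% called higher and 19.5% called lower. Tle3 rose 2.89-fold, from 494, 551 and 490 counts to 1416, 1607 and 1388 (edgeR, adjusted p = 1.67e-05), and Tle4 2.19-fold (adjusted p = 0.000194); both encode Groucho corepressors, which bind TCF factors. Cxxc5, whose product binds Dishevelled, rose 2.14-fold (adjusted p = 3.63e-05), with exons that overlap other genes. Apc2, the relative of Apc, rose 3.38-fold from 5, 5 and 12 counts to 24, 25 and 26 (edgeR, adjusted p = 0.00647), and its exons overlap a gene on the opposite strand. Apc2 too passed the count filter only with the help of its treated libraries. Amer1, which recruits APC and AXIN to the membrane, was 3.12-fold lower, from 261, 285 and 277 counts to 99, 79 and 83 (adjusted p = 9.37e-05). Pygo2, a chromatin partner of β-catenin, was 1.47-fold lower (adjusted p = 0.0344), a call lost in 8 of 12 other settings, among them without control replicate 1 (0.103), control replicate 3 (0.0928), fenofibrate replicate 1 (0.0973) or fenofibrate replicate 3 (0.0855).

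Of 35 genes reported as β-catenin targets 22 were tested. Of these 10 rose, 4 fell and 8 were not called (median 0.18, against 0.00 for all tested genes). The shares over all tested genes were 19.5% called higher and 19.5% called lower. Id2, an inhibitor of basic helix-loop-helix factors, rose 7.49-fold (edgeR, adjusted p = 3.66e-08). The Notch ligand gene Jag1 rose 2.48-fold (adjusted p = 0.00012) and Plaur, the urokinase receptor gene, 2.47-fold (adjusted p = 0.000481). Mitf, the pigment cell factor and also one of the melanocyte markers above, went from 9242, 9223 and 8287 counts to 19228, 20970 and 20213, a 2.27-fold rise (adjusted p = 5.43e-06). Ccnd1, the cyclin D1 gene, was 2.04-fold lower (adjusted p = 4.15e-05) and the connexin gene Gja1 1.69-fold lower (adjusted p = 0.000561). Sp5, a direct target in many tissues, had 0 counts in all 6 libraries. These genes are also targets of other pathways, so their counts are no measure of β-catenin activity.

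**Figure D5:**
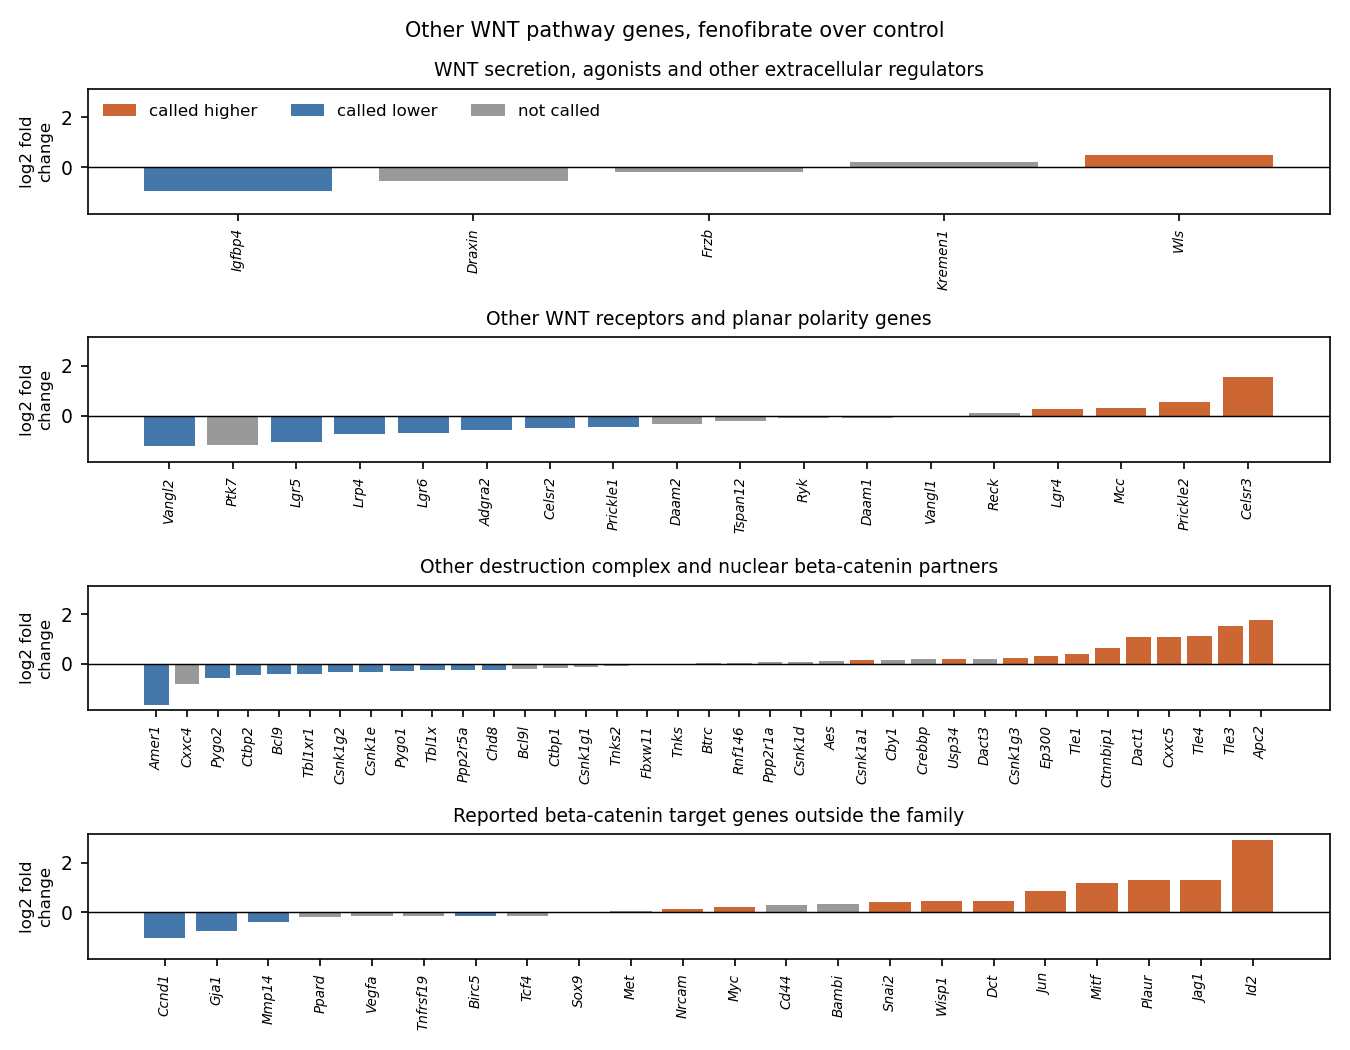
Log2 fold change of fenofibrate over control (y axis) for the tested genes of 4 further WNT pathway lists, 1 bar per gene, ordered within each panel; orange bars were called higher, blue lower and grey not called. The receptor and polarity panel has 7 blue and 4 orange bars, and the nuclear partner panel 11 of each.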

How the data were processed

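The 56 genes are set by a rule on symbols; that this family was taken up, and the further gene lists, were decided with earlier results of these data known. Counts per gene were deposited by the authors as raw whole numbers, per the file headers, beside FPKM values made by the authors. The submitters' processing notes list GRCm39, StringTie 1.3.0 and HISAT2 2.0.4, with no role; the counting tool, strand and filters are not given in the sources used here. GENCODE M21 (GRCm38) holds 99.8% of the table's IDs, and start and end match for 98.7% of them, so coordinates are given as GRCm38.

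In R 4.3.3, edgeR 4.0.16 was run on genes kept by filterByExpr (13629), with TMM scaling, glmQLFit and glmQLFTest and no covariate. The SE is the log2 fold change divided by the square root of F. Alternatives were DESeq2 1.42.0, RLE scaling, no filter, a replicate block, leaving out each library, and limma 3.58.1 on log2(FPKM + 0.5) or log2(FPKM + 0.1). Replicate libraries differed by more than sampling noise. All tested WNT genes were named, with every library's counts where called, also below the 1.4-fold of the rule. From each further list up to 4 called genes in the main direction and 2 in the other were named. Promoter windows are RefSeq's, matched by symbol, taking the window nearest the gene's 5′ end.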

Additional observations from a re-analysis of the deposited data

How the results depend on the processing

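Of the 17 called WNT genes, 12 were called in all 12 other settings: Wnt10a, Wnt9a, Fzd1, Fzd2, Fzd5, Fzd6, Fzd7, Lrp6, Dkk3, Dvl2, Lef1 and Tcf7l1. The other 5 (Wnt5b, Wnt6, Fzd9, Sfrp4 and Tcf7) lost their call in at least 1, and no called value changed sign. Among uncalled genes Fzd4, Lrp5, Dvl3, Apc and Gsk3b took both signs. The number of WNT genes called lower was 8, 4 to 6 on leaving out 1 library and 5 with the replicate block; that called higher was 9, and 8 to 10 over all settings. All genes called were 5326, and 4248 to 5327 over the settings. Same-numbered libraries of the 2 groups showed little common deviation (correlations 0.028, 0.013 and -0.003), and not every library correlated best with its own number. No pairing by number was found, but a check on 3 libraries per group cannot exclude one. With the replicate block 4540 genes were called over all genes.

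In the list of secretion and extracellular genes, 2 were called higher with DESeq2 and with no filter (1 in the main test), and 2 lower with limma at either pseudocount (1 in the main test). In the list of receptors and polarity genes the 4 called higher became 2 with DESeq2, the replicate block and limma at either pseudocount, and 2 to 3 without 1 library. In the list of nuclear partners the 11 called higher became 6 with limma at either pseudocount. The cause was not tested. On the log2(FPKM + 0.5) scale, which understates changes of low genes, the log2 differences were -1.55 for Wnt10a, 1.16 for Wnt9a and 0.93 for Lef1. Wnt4 and Nkd2 had too few counts for the main test. A ratio against a counting limit is given for Wnt4 and a counting interval for Nkd2.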
